A study of Mus musculus with 6 samples.

Results

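The matrix metalloproteinases (Mmp), the ADAM, ADAMTS and ADAMTS-like proteins (Adam, Adamts, Adamtsl) and the tissue inhibitors of metalloproteinases (Timp) were read by 124 of the 45101 probe sets on the array. Members were all probe sets annotated with exactly 1 gene whose symbol begins with Mmp, Adam, Adamts, Adamtsl or Timp followed by a number, whatever their signal. They stand for 70 of the 18193 genes that a probe set names alone: 18 Mmp genes with 29 probe sets, 28 Adam genes with 46, 15 Adamts genes with 28, 5 Adamtsl genes with 8, and 4 Timp genes with 13. A further 5 probe sets that name such a gene beside another gene were left out. Total RNA came from cultures of 3T3-L1, a mouse fibroblast line that can be made to store fat, and each culture was hybridised to 1 single-colour array. The control group held 3 untreated cultures and the resveratrol group 3 cultures given resveratrol, a polyphenol found in grapes. Dose, duration and stage of differentiation are not stated in the labels, and neither is whether the cultures were raised at separate times, so p-values measure the spread among these 6 cultures. Both groups are of 1 cell line, and in such bulk RNA fewer cells of a type and less RNA per cell cannot be told apart.

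Matrix metalloproteinases cut collagens, proteoglycans and other proteins outside the cell with the help of a zinc ion, and most are made as inactive precursors. ADAMs sit in the cell membrane and shed growth factors, cytokines and receptors from the surface, while the secreted ADAMTS enzymes cut proteoglycans and process collagen, and the ADAMTS-like proteins lack the catalytic part. TIMPs bind the active site of these enzymes. Remodelling of the matrix around fat cells is a known part of fat tissue growth, and enzyme and inhibitor together set how much proteolysis takes place.

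Promoter stretches are shown first for the Mmp genes on chromosome 9, because most of these genes have a like promoter layout and yet only some of them gave a signal. RefSeq windows of assembly GRCm38.p6, reaching from 250 bases before to 50 bases after a start, existed for 41 of the 70 genes (46 windows), among them 10 of the 11 genes with a probe set that passed the test. On both strands, the AP-1 motif TGANTCA, to which Fos and Jun proteins bind, and the TATA box TATAAA were searched. The Mmp genes on chromosome 9 were grouped after the windows had been read. Among them, 8 of 11 windows (72.7%) held TGANTCA, against 3 of 35 windows of the other members (8.57%) and 7.81% of all 32851 windows. TATAAA was found in 9 of those 11 windows (81.8%), against 4 of 35 (11.4%) and 13.6%. The layout was not common to all of them. The window of Mmp8 held no TGANTCA, and 1 of the windows of Mmp12 and 1 of those of Mmp7 held neither motif. In the other Mmp12 window TATAAA lay after the start. The Mmp7 stretch below comes from its other window. These stretches run 5′ to 3′ on the gene's strand, from a few bases before TGANTCA to a few after TATAAA, with both motifs in capitals. Their positions are chr9:7272475-7272507 for Mmp13, chr9:7445772-7445821 for Mmp3, chr9:7502275-7502322 for Mmp10 and chr9:7692023-7692073 for Mmp7, all on the plus strand.
Mmp13: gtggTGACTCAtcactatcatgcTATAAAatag
Mmp3: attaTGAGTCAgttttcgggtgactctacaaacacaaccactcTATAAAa
Mmp10: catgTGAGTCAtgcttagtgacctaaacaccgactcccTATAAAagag
Mmp7: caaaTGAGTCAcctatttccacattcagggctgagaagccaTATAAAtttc

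Each stretch holds TGANTCA upstream of TATAAA, with 12 bases between them in Mmp13, 32 in Mmp3, 27 in Mmp10 and 30 in Mmp7. Of these 4 genes, Mmp13 fell, Mmp3 and Mmp7 were tested without passing, and Mmp10 was too dim to be tested. Mmp7, matrilysin, had 21, 15.8 and 57.7 in control and 58.2, 10.8 and 45.6 in resveratrol cultures, widely scattered in both (adjusted p = 0.859). For comparison, the 250 bases upstream of the start are shown for an inhibitor gene that fell and an ADAMTS gene that rose. They are chr10:86300162-86300411 on the plus strand for Timp3 and chr16:85803114-85803363 on the minus strand for Adamts1. Capitals mark TATAAA and the GC box GGGCGG, which reads CCGCCC when it lies on the other strand.
Timp3: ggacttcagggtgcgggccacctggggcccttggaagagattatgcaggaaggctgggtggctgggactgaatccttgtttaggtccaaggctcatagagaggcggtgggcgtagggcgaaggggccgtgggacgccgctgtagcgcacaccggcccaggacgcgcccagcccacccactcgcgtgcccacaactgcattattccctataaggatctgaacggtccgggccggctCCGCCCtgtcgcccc
Adamts1: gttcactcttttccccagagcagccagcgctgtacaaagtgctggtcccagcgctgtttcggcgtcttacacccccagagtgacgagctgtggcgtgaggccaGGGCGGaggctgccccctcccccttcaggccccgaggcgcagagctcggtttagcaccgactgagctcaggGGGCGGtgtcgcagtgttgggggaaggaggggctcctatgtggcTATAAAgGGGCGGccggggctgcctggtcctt

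GGGCGG was found in 0 of the 11 windows of chromosome 9 Mmp genes, in 21 of the 35 windows of other members (60%) and in 35.7% of all windows. The median GC content of these windows was 42.7%, 63.3% and 52.7%. A match describes letters in the window and shows no binding.

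Signals were bright enough to be tested for 75 member probe sets, which stand for 42 of the 70 genes. The test compared log2(intensity + 16) between the groups by limma, with p-values adjusted over all 27022 probe sets tested and a threshold of 0.05. With resveratrol, 7 member probe sets rose (9.33% of those tested, against 3.95% of all tested probe sets) and 7 fell (9.33%, against 4.22%). The rises came from 7 genes, Adam15, Adam23, Adamts1, Adamtsl4, Mmp23, Timp2 and Timp4. The falls came from 4 genes, Mmp9, Mmp11, Mmp13 and Timp3, of which Mmp13 was bright enough to be tested only through its control arrays. Groups did not overlap for 31 of the 75 (41.3%, against 26.4% of all tested), 17 with resveratrol higher and 14 with it lower. The median log2 difference of the members was 0.04 and that of all tested probe sets 0.01. Where counts at an unadjusted p under 0.05 in limma are given below, the share of all probe sets under that cut was not counted. Such counts are thus not read as an excess or a lack. Without an intensity trend in the variance, 6 of the 14 calls were kept, and those of Adam15, Adam23, Mmp11, Mmp23, Timp2, Timp4 and 2 of the 3 of Timp3 were lost. With no filter 9 were kept, and those of Adam15, Mmp13, Mmp23 and 2 of Timp3 were lost.

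**Figure D1:**
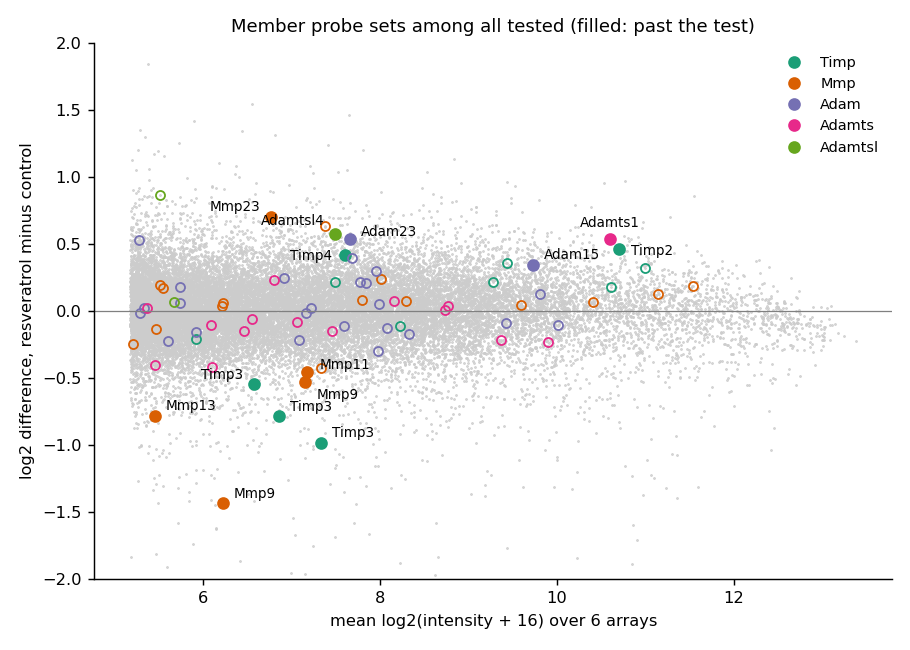
The log2 difference (resveratrol minus control) of every tested probe set against its mean log2(intensity + 16) over the 6 arrays, members coloured by family and filled where they passed the test; 11 probe sets beyond 2 on the vertical axis are not drawn. The 14 filled members run from -1.44 (Mmp9) to 0.70 (Mmp23).

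The 4 inhibitors went different ways. Timp2 and Timp4 rose, Timp3 fell, and Timp1 did not pass. TIMPs were read by 13 probe sets, of which 12 were tested. Of these, 2 rose (16.7%, against 3.95% of all tested probe sets) and 3 fell (25%, against 4.22%). All 3 falls were on probe sets of Timp3, so they stand for 1 gene. TIMP3 is the inhibitor that binds to the matrix itself and, beside MMPs, also blocks ADAM17 and aggrecan-cleaving ADAMTS enzymes.

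On its probe set 1449335_at, Timp3 gave intensities of 172.8, 202 and 266.7 in control cultures 1 to 3 and 111.6, 113.5 and 75 in resveratrol cultures 1 to 3. All treated arrays were below all control arrays. The log2 difference was -0.98 ± 0.17 (SE, n = 3 per group), a fold of 0.506, with adjusted p = 0.00512. The second, 1419089_at, had 103.1, 152.2 and 162.9 against 61.6, 72.3 and 85.6, and the groups again lay apart. It fell by 0.79 ± 0.17 (adjusted p = 0.0148). The third, 1419088_at, had 84.7, 109.1 and 105.7 against 56.1, 67.9 and 65.1, also apart, and fell by 0.55 ± 0.13 (adjusted p = 0.0295). The fourth, 1449334_at, had 51.2, 56.5 and 40.8 against 37, 42.1 and 42.1, which overlap, with a difference of -0.21 (adjusted p = 0.49). The 4 probe sets thus had the same sign. The first passed under all alternatives tried. The second lost its call without control replicate 2 or 3 or resveratrol replicate 1 or 2 (adjusted p = 0.066, 0.0513, 0.0594 and 0.0523), and the third without any array but control replicate 1 (adjusted p = 0.0614 to 0.114).

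Timp2, which both inhibits MMP2 and helps MMP14 activate it, had 1259.4, 1565.1 and 1386.7 in control cultures and 2057.8, 1813.4 and 1923.6 with resveratrol on 1460287_at. Every treated array was above every control array, and the difference was 0.46 ± 0.09 (adjusted p = 0.0113). The call was lost without resveratrol replicate 1 (adjusted p = 0.0557). The other 4 tested Timp2 probe sets did not pass but were also positive. Their differences were 0.32 for 1433662_s_at (adjusted p = 0.0836), 0.36 for 1420924_at (0.0947), 0.21 for 1450040_at (0.284) and 0.17 for 1454677_at (0.504). On the last 2 of these, treated and control arrays overlapped.

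Timp4, an inhibitor found in heart and fat tissue, had 158.3, 147 and 150.6 in control and 198.7, 211.9 and 215.3 in resveratrol cultures on 1423405_at. The groups lay apart by more than the range within either. It rose by 0.42 ± 0.09 (adjusted p = 0.0161) and no longer passed without control replicate 2 or resveratrol replicate 2 or 3 (adjusted p = 0.0648, 0.0652 and 0.0544). Its other probe set, 1450974_at, had 153.3, 160 and 141.5 against 165.1, 182.3 and 187.5, apart but not past the test (0.21, adjusted p = 0.233). Timp1, the widely inducible inhibitor, had 302.1, 288.8 and 293.9 against 272.3, 263.2 and 279.7. These groups did not overlap, and the difference of -0.11 ± 0.08 had adjusted p = 0.461.

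**Figure D2:**
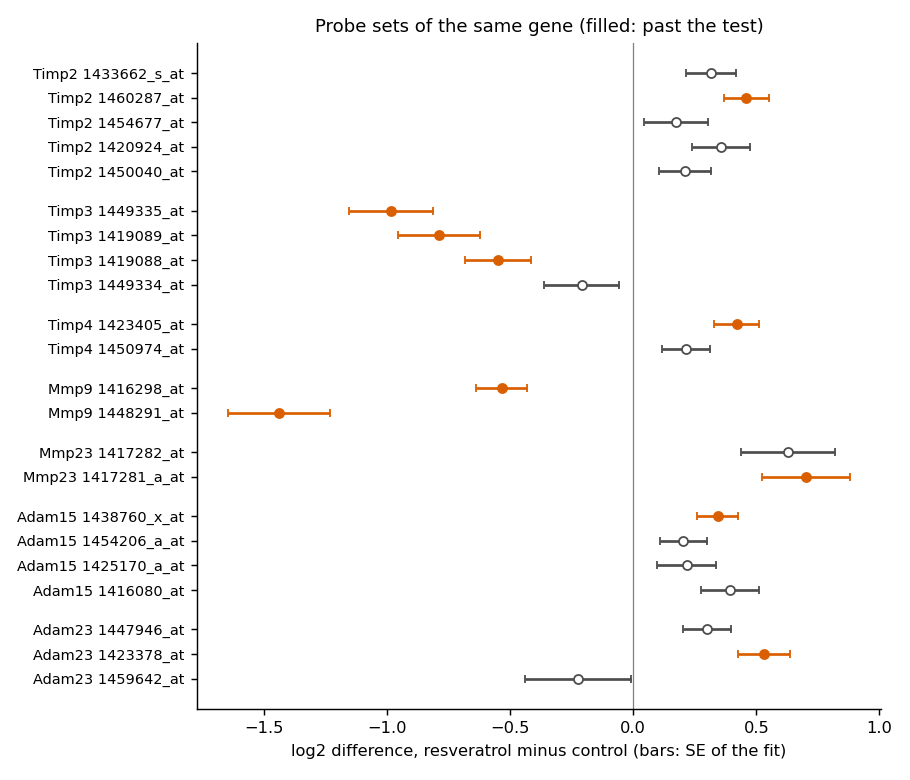
Log2 difference (resveratrol minus control) with its SE for every tested probe set of the genes that had more than 1, at least 1 of them past the test (filled), n = 3 arrays per group. All 5 tested Timp2 probe sets lie above 0 and all 4 Timp3 probe sets below it, while Adam23 has 1459642_at below 0, at -0.22.

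In RefSeq's GRCm38.p6 annotation 3 of the TIMP genes overlap synapsin genes, which code for proteins of synaptic vesicles: Timp1 overlaps Syn1, Timp3 overlaps Syn3 and Timp4 overlaps Syn2. These synapsin genes were looked up after the members' values were seen. Syn2 fell on all 4 of its tested probe sets while Timp4 rose on 1 probe set. On 1435511_at, Syn2 had 911.1, 909 and 928.2 in control and 349.2, 459 and 346.6 in resveratrol cultures. No array of one group came near the other, and the difference was -1.23 ± 0.10 (adjusted p = 4.8e-05). The other 3 fell by 0.93, 0.79 and 0.54 (adjusted p = 4.88e-05, 0.000361 and 0.00132). The 4 calls were kept under all 16 alternatives. Neither Syn3 (1435310_at, 26.1 ± 10.7 against 21.6 ± 10, SD, adjusted p = 0.779) nor Syn1 (42.8 ± 28 against 50.6 ± 19.1, adjusted p = 0.716) passed, both on dim probe sets.

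**Figure D3:**
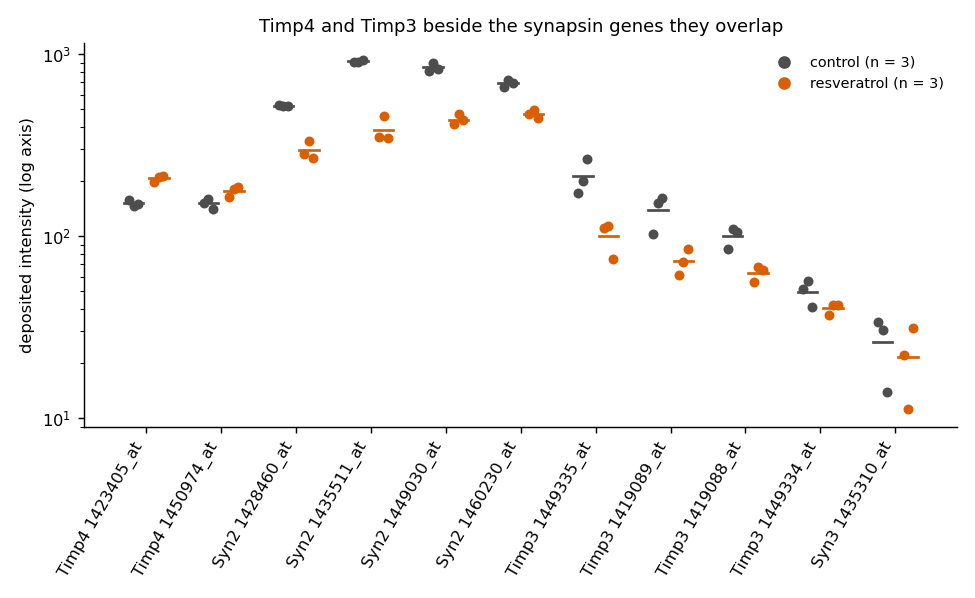
Deposited intensity (log axis) of the tested probe sets of Timp4 and Syn2, and of Timp3 and Syn3, on the 3 control and 3 resveratrol arrays (points are arrays, lines group means). Timp4 (1423405_at) is at 147 to 158.3 in control and 198.7 to 215.3 with resveratrol, whereas Syn2 (1435511_at) is at 909 to 928.2 and 346.6 to 459.

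Among the 20 tested Mmp probe sets 4 fell (20%, against 4.22% of all tested probe sets) and 1 rose (5%, against 3.95%). The 4 falls came from 3 genes, and that of Mmp13 had entered the test only through its control arrays. The falls were in Mmp9, a gelatinase, in Mmp13, a collagenase, and in Mmp11, which is cut free of its propeptide inside the cell. The gelatinases, which degrade denatured collagen and basement membrane collagen, separated: Mmp9 fell on both of its probe sets and Mmp2 passed on neither.

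On 1448291_at, Mmp9 had 87.5, 103.6 and 135.1 in control cultures and 19.5, 44.5 and 27.8 with resveratrol. The lowest control value is well above the highest treated one. The difference of -1.44 ± 0.21 (fold 0.369, adjusted p = 0.0018) was the lowest of all 75 tested members. On 1416298_at it had 155.4, 148.9 and 164 against 98.4, 111.7 and 98.5, again with no overlap. It fell by 0.53 ± 0.10 there (adjusted p = 0.00959). Both calls were kept under all alternatives, with -1.85 to -0.87 for the first. Macrophages are another known source of Mmp9. The summed signal of 8 macrophage markers was 305 to 397.2 on control and 404.2 to 469.7 on resveratrol arrays. Part of that sum comes from dim probe sets, such as those of Cd68 (mean 28.5) and Fcgr1 (mean 30.6). Of the 8 markers 6 were tested and 1 rose, Cd14 (0.47, adjusted p = 0.0365). Its adjusted p was 0.0716 to 0.142 without control replicate 2 or 3 or resveratrol replicate 1 or 2. It was 0.0738 with no filter and 0.071 with no intensity trend. Ptprc and Itgam were too dim to be tested. The part of macrophages in the Mmp9 result was not tested.

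Mmp2, the gelatinase of fibroblasts, had 2735.6, 2918 and 2661.3 in control and 3288.4, 2966.9 and 3182.5 in resveratrol cultures on 1416136_at. These groups did not overlap, but the difference of 0.18 ± 0.08 did not pass (adjusted p = 0.216). It passed after quantile normalization (0.23, adjusted p = 0.0207) but under none of the other alternatives, where the adjusted p reached 0.474. On 1439364_a_at the groups overlapped, at 2139.9 ± 99.2 and 2338.7 ± 145.6 (SD), with a difference of 0.13 (adjusted p = 0.408).

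Mmp13, which cuts fibrillar collagen, had 36.5, 34.7 and 56 in control and 14.4, 20.6 and 17.8 with resveratrol. Treated arrays were all lower, and their mean of 17.6 is under the lowest mean of a tested probe set, 20.3. The probe set thus entered the test through its control arrays, with a mean of 42.4, and a difference was built into that entry. It fell by 0.78 ± 0.19 (adjusted p = 0.0281, and 0.0861 with no filter). The call was lost without control replicate 3 or any resveratrol array (adjusted p = 0.0616 to 0.102). Mmp8, the neutrophil collagenase, had 30.7 ± 3.54 and 26.5 ± 2 (SD), with adjusted p = 0.709. The probe sets of the other collagenases, Mmp1a and Mmp1b, were below the tested range.

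Mmp11, known from stroma and from fat tissue, had 145.6, 167.8 and 150.1 in control and 111.1, 112.2 and 100.6 in resveratrol cultures. The groups lay apart, and it fell by 0.46 ± 0.10 (adjusted p = 0.0218). Without control replicate 2 the adjusted p was 0.0937, and without resveratrol replicates 1, 2 or 3 it was 0.0582, 0.0569 and 0.0676. Mmp3, stromelysin 1, had 138.7, 191 and 187.1 against 131.1, 110.1 and 128.4. The treated arrays were lower throughout, and the difference of -0.43 ± 0.13 missed the threshold (adjusted p = 0.0706). Control replicate 1 was the control array nearest to the treated ones, and without it Mmp3 passed (-0.56, adjusted p = 0.0163). Under other alternatives the adjusted p of Mmp3 reached 0.228.

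Mmp23, a membrane-anchored enzyme of unusual domain layout, was the Mmp gene that rose. On 1417281_a_at, of a kind that may bind several transcripts of the gene, it had 99.4, 62.6 and 53 in control and 126.1, 108.6 and 135.8 with resveratrol. The groups lay apart, with a wide control spread. It rose by 0.70 ± 0.18 (adjusted p = 0.0354), and leaving out any array but control replicate 1 took the adjusted p to between 0.0652 and 0.117. The other probe set, 1417282_at, had 115.6, 173 and 80.9 against 184.2, 202.9 and 187.3, likewise apart, with 0.63 ± 0.19 (adjusted p = 0.0712). Control replicate 2 was its highest control array, and without it the probe set passed (0.88, adjusted p = 0.00852). Under other alternatives the adjusted p of 1417282_at reached 0.202. Mib2, which overlaps Mmp23 in the annotation, had 164.7 ± 9.26 and 150 ± 8.21 (SD, adjusted p = 0.527).

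The membrane-type MMPs, which act at the cell surface and activate other MMPs, gave no call. By limma 0 of their 7 tested probe sets passed, 0 had an unadjusted p under 0.05, and on none were the groups apart. Of all tested probe sets 3.95% rose, 4.22% fell, and on 26.4% the groups were apart. With only 7 probe sets, these counts of 0 are not read as a lack. Mmp14, the activator of MMP2, had 1314.8 ± 94.6 and 1373.3 ± 75.4 (SD) on 1448383_at, a difference of 0.06 (adjusted p = 0.726), and 0.04 on 1416572_at (0.814). Its 1440920_at had 200.7 ± 11.5 and 214.4 ± 29.7. Mmp19, from outside that group, had 233.8, 219.8 and 211.2 against 268.2, 268.7 and 254.1 on 1421976_at. These groups lay apart without passing (0.24, adjusted p = 0.116), and 1421977_at overlapped (0.07, adjusted p = 0.685).

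**Figure D4:**
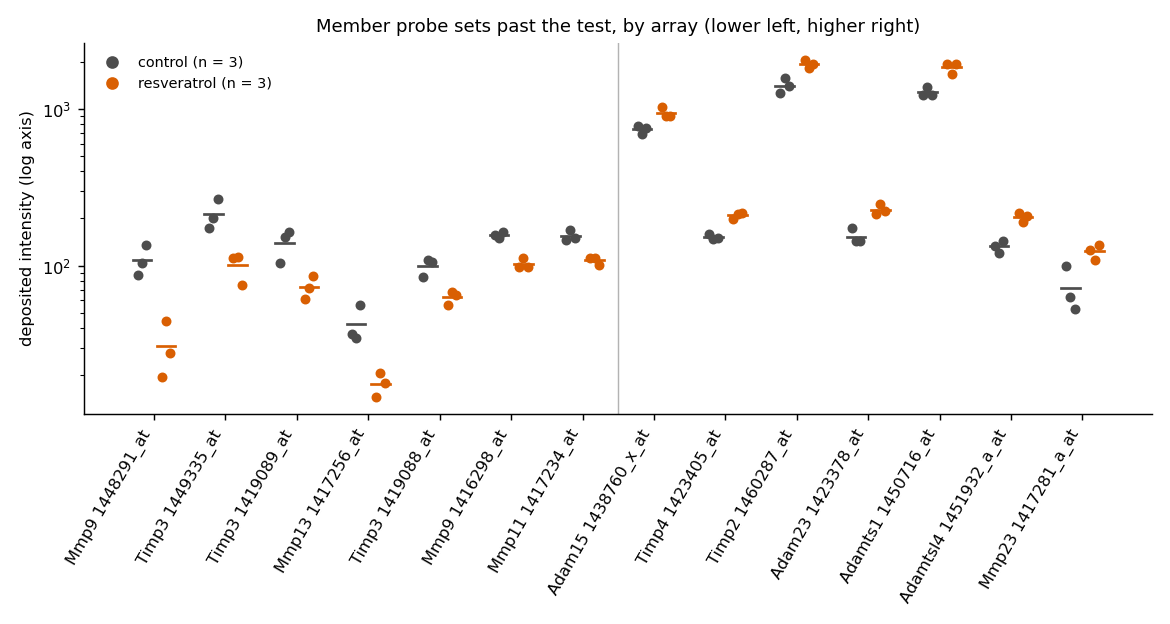
Deposited intensity (log axis) of the 14 member probe sets past the test on each of the 3 control and 3 resveratrol arrays, points being arrays and lines group means. For every probe set the groups do not overlap; Mmp9 (1448291_at) goes from 87.5 to 135.1 down to 19.5 to 44.5, and Adamts1 from 1216.3 to 1376.2 up to 1671.9 to 1942.1.

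Of the ADAMs, 25 probe sets of 13 genes were tested, 2 rose (8%, against 3.95% of all tested probe sets) and 0 fell. In limma 6 had an unadjusted p under 0.05, a cut for which no share of all tested probe sets was counted. The rises were in Adam15 and Adam23. ADAM23 lacks the catalytic zinc site and works in adhesion, and ADAM15 is a catalytic ADAM with an integrin-binding motif.

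Adam23 had 173.3, 142.4 and 142.4 in control and 212, 246.5 and 224.2 in resveratrol cultures on 1423378_at. All treated arrays were higher, by 0.53 ± 0.11 (adjusted p = 0.0106). The adjusted p was 0.0556 without resveratrol replicate 2. On 1447946_at it had 204.1, 193.3 and 227.2 against 235.2, 271.1 and 273.7, apart, with 0.30 (adjusted p = 0.0867). The dimmest, 1459642_at, had 23.9, 56.9 and 33.8 against 25.4, 30.9 and 30.8, which overlap, with -0.22 (adjusted p = 0.622) and 0.01 without control replicate 2. The probe sets of Adam23 thus disagreed in sign.

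Adam15 rose on 1438760_x_at, a kind of probe set that may also bind related transcripts. Its values were 772.3, 685.5 and 753.6 in control and 1026.9, 896.9 and 895.2 with resveratrol. The groups lay apart and the difference was 0.34 ± 0.08 (adjusted p = 0.0279). It was lost without control replicate 2 or resveratrol replicate 1 or 2 (adjusted p = 0.116, 0.12 and 0.0621). The other 3 were positive without passing, at 0.39 (1416080_at, adjusted p = 0.068), 0.22 (1425170_a_at, 0.333) and 0.20 (1454206_a_at, 0.252).

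The main sheddases did not pass. ADAM17 releases tumour necrosis factor and ADAM10 releases Notch. Adam17 had 260.1, 275.4 and 255.7 against 217.5, 182.5 and 234.9 on 1421858_at. The treated arrays were all lower there, with -0.30 (adjusted p = 0.0957), and the other 2 Adam17 probe sets overlapped (-0.13 and -0.12, adjusted p = 0.451 and 0.568). Adam10 had 847 ± 68.6 and 922 ± 46.8 (SD) on 1428103_at (0.12, adjusted p = 0.436), and its groups overlapped on every probe set. Adam9, a sheddase found in many tissues, had 1056.4 ± 108.7 and 978 ± 55.1 (adjusted p = 0.549). Adam12, an ADAM known from the start of fat cell and muscle differentiation, had -0.09 and -0.18 on its probe sets (adjusted p = 0.533 and 0.298). Of 16 ADAM genes known mainly from testis or epididymis, 3 had a tested probe set and 0 passed in limma, with 0 at an unadjusted p under 0.05. With so few tested, this is not read as a lack.

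**Figure D5:**
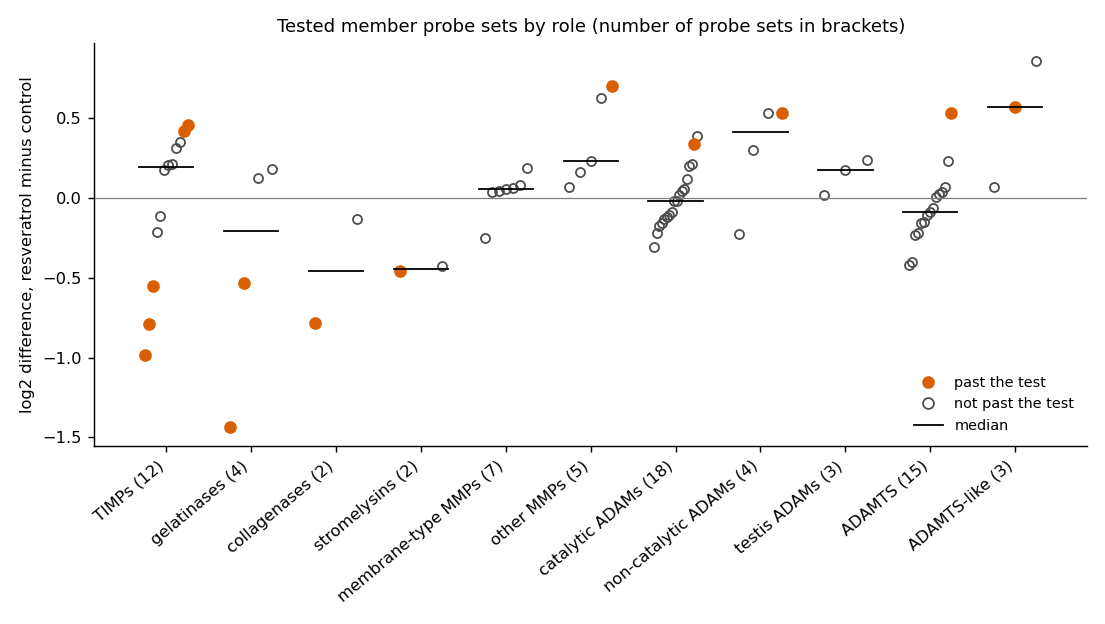
Log2 difference (resveratrol minus control) of the 75 tested member probe sets by role, filled where past the test, with a line at each median. TIMPs have members past the test on both sides of 0, membrane-type MMPs have none, and the gelatinases run from -1.44 (Mmp9) to 0.18 (Mmp2).

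Among ADAMTS genes 1 of 15 tested probe sets rose (6.67%, against 3.95% of all tested probe sets) and 0 fell. In limma 4 had an unadjusted p under 0.05, again without an overall share for that cut. The rise was in Adamts1, a secreted enzyme that cuts versican and aggrecan and is known as an inhibitor of new blood vessels. It had 1216.3, 1376.2 and 1223.3 in control and 1942.1, 1671.9 and 1931.9 in resveratrol cultures. The lowest treated array exceeded the highest control array. The difference of 0.53 ± 0.09 (fold 1.45, adjusted p = 0.0037) was called under every alternative.

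The other aggrecan-cleaving members did not pass. Adamts4 had 67.7, 68.9 and 55.5 against 49.7, 38.8 and 42.7 on 1455965_at, with all treated arrays lower and -0.42 (adjusted p = 0.11). Its 1452595_at overlapped, at -0.06 (adjusted p = 0.839). Adamts5 overlapped on all 3 tested probe sets, with control means of 419.2, 410.6 and 263.1 and resveratrol means of 428.2, 413.8 and 277.8. Adamts12, which is known to act on cartilage oligomeric matrix protein, had 976.6, 1038.5 and 1040.5 against 892.2, 827.5 and 879.4. Treated arrays were all lower, and the difference of -0.23 ± 0.07 missed the threshold (adjusted p = 0.0764). Adamts9, which cuts versican, had differences of mixed sign, -0.22, 0.23 and -0.15 (adjusted p = 0.188, 0.281 and 0.695). Adamts15 had -0.09 (adjusted p = 0.7).

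Adamtsl4, an ADAMTS-like protein of microfibrils, had 134.1, 119.8 and 143.1 in control and 217, 188.1 and 206.8 with resveratrol. The groups lay far apart, and it rose by 0.57 ± 0.10 (fold 1.48, adjusted p = 0.00652). Its only probe set is of a kind that may bind several transcripts of the gene. Adamtsl3 had 40.2, 9.7 and 11.3 against 31, 59.2 and 50.7. Control replicate 1 overlaps the treated arrays, and the difference of 0.86 ± 0.29 did not pass (adjusted p = 0.103). The other control values are under the lowest mean of a tested probe set, 20.3, while the treated mean is 47. The probe set thus entered the test mainly through its resveratrol arrays, and that entry favoured a rise. Entry was set on all 6 arrays, so the pass without control replicate 1 (1.22, adjusted p = 0.0114) is no support for a rise. Over all alternatives the adjusted p reached 0.305. Adamtsl5 had 21.9, 42.8 and 39 against 39.3, 20.4 and 54.2, which overlap (adjusted p = 0.917).

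The remaining 49 probe sets were too dim to be tested, and 28 genes had none that was. The highest single value among these 49 was 29.2. Fitted with no filter, 0 of them passed in limma, 8 had an unadjusted p under 0.05 and the lowest adjusted p was 0.0589. That lowest one was Mmp12, the macrophage elastase, with 1.82, 1.7 and 1.7 in control and 13.7, 7.1 and 8.4 in resveratrol cultures. These values are far below the lowest mean of a tested probe set, 20.3. Adamts6 had 18.4, 16 and 15 against 9.3, 3.4 and 2.5, all treated arrays being lower (adjusted p = 0.0791).

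Genes of the wider pathway were read by the brightest probe set of each. Of all 12630 genes tested in this way, 5.32% rose and 5.21% fell. Of 14 tested regulators of metalloproteinases (median log2 difference 0.06) 1 fell and 0 rose. It was Bsg, the surface protein basigin, which is known to induce MMPs in neighbouring cells. It had 3485.6, 3528.5 and 2965.4 in control and 2023.9, 1909.3 and 1957.3 with resveratrol. The groups were well separated, with a fall by 0.75 ± 0.09 (adjusted p = 0.000446). It rests on 1 probe set of a kind that may bind several transcripts of the gene. With this kind left out together with probe sets that may bind related genes, 0 of these regulators fell. The Bsg probe set was itself removed there, so its fall was not tested in that setting. Reck, a membrane inhibitor of MMPs, had 134.2 ± 11.7 and 143 ± 4.98 (SD, adjusted p = 0.706). Furin, the protease that activates many members, had 374.5 ± 26.3 and 379 ± 11.1 (adjusted p = 0.93).

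Of 20 tested substrates shed by ADAMs (median 0.08), 1 rose and 0 fell by the brightest probe set. The riser was Jag1, a Notch ligand, with 774.3, 720.3 and 769.1 against 909.8, 970.5 and 1109.4. The groups lay apart, and the difference was 0.39 ± 0.09 (adjusted p = 0.0178). It was lost without control replicate 2 or resveratrol replicate 2 or 3 (adjusted p = 0.0778, 0.0542 and 0.0588) and with no intensity trend (0.0936). On dimmer probe sets of their genes, Cx3cl1, the chemokine fractalkine, had 86.5, 75.3 and 71.4 against 33, 55.1 and 35.9, with all treated arrays lower, and fell by 0.73 ± 0.17 (adjusted p = 0.0228). Cd44, the hyaluronan receptor, rose by 0.38 (adjusted p = 0.0266) and Prnp, the prion protein, by 0.30 (adjusted p = 0.041). Leaving out 1 array took these adjusted p to as much as 0.0844 for Cx3cl1 (without resveratrol replicate 1), 0.0851 for Cd44 (without resveratrol replicate 3) and 0.159 for Prnp (without resveratrol replicate 1). Among 7 tested ADAMTS substrates (median 0.14), 1 rose and 0 fell. That was Thbs1, thrombospondin 1, with 710.6, 842.6 and 884.1 against 1183.8, 919.2 and 1225.2, apart by a narrow margin. It rose by 0.44 ± 0.12 (adjusted p = 0.0418). It no longer passed with the arrays blocked by spike signal (0.0721), or without control replicate 1 or 2 or resveratrol replicate 1 or 3 (0.0915 to 0.147), nor with no filter (0.112) or no intensity trend (0.145). Vcan, versican, had 852.6 ± 77.3 and 712.5 ± 124.6 (SD, adjusted p = 0.215).

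Of 7 tested other astacin and membrane metalloproteinases and their helpers (median 0.18), 1 rose and 0 fell. Ece1, an endothelin-converting enzyme, had 244.9, 246.7 and 254.4 against 317.8, 322.1 and 325.5. Both groups were tight and apart, with 0.35 ± 0.08 (adjusted p = 0.0173). That call was lost without control replicate 2 or any resveratrol array (adjusted p = 0.0519 to 0.0653) and with no intensity trend (0.07). In plasminogen activation, the cascade that activates several MMPs, 0 of 5 tested genes passed in limma and 1 had an unadjusted p under 0.05 (median -0.08). Plat, tissue plasminogen activator, had 291.6 ± 80.8 and 258.3 ± 17.4 (SD, adjusted p = 0.712), and Plau was too dim to be tested.

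Marker lists and hybridisation spikes were read on the same arrays. Of 7 tested adipocyte markers 2 fell by the brightest probe set, Slc2a4 (-1.19, adjusted p = 0.000172) and Cidec (-0.57, adjusted p = 0.0078). All 7 were negative by that probe set, from -1.19 to -0.10 (Cebpa), with a median of -0.26. Pparg was among them, with its groups apart (-0.26, adjusted p = 0.061). Fabp4 fell on a pair of dimmer probe sets, by 0.67 and 0.51 (adjusted p = 0.00129 and 0.00164). Its 2 brightest gave -0.22 and -0.14 without passing (adjusted p = 0.517 and 0.689). Of 8 fibroblast markers 1 rose, Thy1 (0.40, adjusted p = 0.0078), and 0 fell by the brightest probe set, though 2 collagens were lower at an unadjusted p under 0.05, Col1a1 (-0.32, adjusted p = 0.0757) and Col3a1 (-0.29, adjusted p = 0.209). A dimmer probe set of Col3a1 fell by 0.58 (adjusted p = 0.00534). With no intensity trend the calls of Cidec (0.0544), Thy1 (0.0649) and Col3a1 (0.0525) were lost. Summed adipocyte markers were 32310.9 to 48159.5 on control and 31306.2 to 38358.5 on resveratrol arrays, and summed fibroblast markers 33182.6 to 41642.3 and 31123.2 to 37872.6, so both ranges overlapped. The adipocyte sum is led by Fabp4, Lpl and Adipoq (means 10835.7, 8101.6 and 7730.2), so it says little about the dimmer markers. Endothelial and epithelial markers gave 0 calls among 2 and 3 tested genes in limma, with 0 at an unadjusted p under 0.05, and summed signals of 70.5 to 95.7 against 77.5 to 102.9, and 184.2 to 396.3 against 252 to 288.5. Pecam1 stayed at or below 10.7. Their part in the members' differences was not tested. Spikes were brighter on control replicates 1 and 2 and resveratrol replicate 1 than on the other 3 arrays. Of the brighter arrays 1 is of a resveratrol culture and of the dimmer arrays 1 is of a control culture, so differences within them rest on a single array on one side and have no test. Within the brighter and the dimmer arrays the difference was -1.65 and -1.55 for Mmp9 (1448291_at), -0.67 and -1.38 for Timp3 (1449335_at), 0.55 and 0.43 for Timp2 (1460287_at), and 0.58 and 0.55 for Adamts1. All 14 member calls were kept with this split as a block.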

How the data were processed

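Biotin-labelled total RNA was hybridised to single-colour oligonucleotide arrays, per the labels' protocols. The authors deposited linear intensity values, 1 per probe set, and no label names the software that summarised the probes. The mean of each column, with 2% of values trimmed from either end, is 150, so each array carries 1 scaling factor. Values were taken as deposited and turned into log2(intensity + 16), which understates changes of dim probe sets. After 64 control probe sets were left out, the 60% with the highest mean over the 6 arrays were tested (27022). A 2-sided test of resveratrol against control used limma 3.58.1 (lmFit, then eBayes with a trend in intensity; R 4.3.3), and p-values were adjusted by Benjamini-Hochberg over these probe sets. The number of arrays limits precision. The fit was tested on simulated data.

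Gene names come from GEO's platform annotation. All 124 Entrez numbers matched RefSeq (GRCm38.p6), with 0 differing symbols. No build is named for the array, so only promoter windows carry coordinates. Named are every gene with a probe set past the threshold, the 3 brightest probe sets of each family, and fixed genes such as Mmp2, Mmp14 and Adam17. Other members are given by count, except that Adamts6, Adamts15, Mmp7, Mmp8, Mmp12 and Mmp19 were added after their values were seen. Members and gene lists were chosen with earlier results of these data known, and the role groups after the files were read. Alternatives were quantile normalization, other offsets and filters, other variance models, replicate and spike blocks, leaving out cross-hybridising probe sets, and leaving out each array. Counted as cross-hybridising were all probe sets ending in _s_at, _x_at or _a_at, also those that may only bind several transcripts of the same gene. Figures were drawn with matplotlib 3.10.9 in Python 3.11.15.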

Additional observations from a re-analysis of the deposited data

How the results depend on the processing

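Of 33 called probe sets of members, gene and marker lists and Syn2, 14 were called under every one of the 16 alternatives in which they were tested, 19 lost the call under at least 1, and 0 changed sign. Syn2 and the dimmer probe sets of listed genes were added to these runs after the data were seen. The total of 2209 called probe sets became 1396 with no filter and 861 with no intensity trend, and 1131 to 1952 on leaving out 1 array. It was 1431 without cross-hybridising probe sets, a setting that takes called probe sets out of the fit and so lowers the count by removal. The 7 members that rose became 2 with no intensity trend, and 3 to 9 on leaving out 1 array. Without cross-hybridising probe sets 4 rose, because the called probe sets of Adam15, Adamtsl4 and Mmp23 were themselves removed. That setting is thus no test of those calls. The 7 that fell became 4 with no filter and 4 with no intensity trend, and 3 to 8 on leaving out 1 array. Adam23 on 1459642_at, never called, went from -0.22 to 0.0118 without control replicate 2 (-0.42 to 0.0118 over all arrays left out). The cause was not tested. With the replicate block, 1894 probe sets were called, and 8 members rose and 7 fell, Mmp23 on 1417282_at being the one gained, while the listed gene Prnp lost its call (adjusted p = 0.0746). With the spike block, Cd44 lost its call (adjusted p = 0.0565). Deviations of same-numbered arrays correlated at -0.061, -0.016 and 0.093, and those of the other pairs at -0.082 to 0.094. With 3 arrays per group these values cannot tell whether same-numbered cultures were raised or handled together. Signal limits the 49 dim members: with no filter 0 passed in limma, 8 had an unadjusted p under 0.05, and the lowest adjusted p was 0.0589.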
